A study of Mus musculus with 24 samples.

Results

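Genes of glycolysis and of the response to low oxygen were followed through 24 RNA-seq libraries of cultured mouse leukemia cells. The 38 genes were taken by their symbols from 4 deposited gene tables, which list between 24340 and 24557 genes, and every one of the 38 has a row in each table. They comprise 17 core glycolytic enzymes, 7 transporters and regulators of glycolytic flux, 13 targets of hypoxia-inducible factor (HIF) that lie outside the glycolytic chain, and Hif1a, the gene of the oxygen-regulated HIF subunit. The main contrast drawn below is between the core enzymes and the HIF targets.

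Glycolysis breaks glucose down to pyruvate in the cytosol, lactate dehydrogenase turns pyruvate into lactate, and monocarboxylate transporters carry lactate across the cell membrane. HIF proteins are marked for destruction by oxygen-dependent prolyl hydroxylases. Once stable, they bind short DNA elements and activate glycolytic genes together with genes of blood vessel growth, mitochondrial clearance and collagen modification. Dividing myeloid cells take up much glucose, and cytokines that signal through Janus kinases are known to promote that uptake.

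The libraries form 4 comparisons of 3 against 3. Per the labels, all cells derived from bone marrow of C57BL/6 mice and were cultured in medium with SCF, IL3 and IL6. In the models titled iCALM_AF10, iMLL_AF10 and iMLL_AF9 cells with an inducible leukemia fusion received doxycycline (DOX) or the vehicle DMSO, and the genotype is given as wild type. In the Jak1 experiment both groups carried CALM-AF10, and the genotype was Jak1 floxed or Jak1 deleted (called null here), with deletion by Cre-ER and 4-OHT. Columns of the floxed group are named DMSO, the vehicle. Effects of 4-OHT, of Cre activity and of the loss of Jak1 therefore cannot be told apart. Columns of the CALM-AF10 table carry the words On and Off where its sample titles carry DMSO and DOX. No source used here ties these names, so that comparison is given as off against on. The sources used here give no drug dose, no time, no promoter for a fusion and no list of deleted Jak1 exons. No label states whether the 3 libraries of a group are separate cultures or clones, so p-values reflect the spread among libraries, which could be technical.

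Depth was 12130633 to 40187404 counts per library for CALM-AF10 and 11743388 to 13764632 for the Jak1 experiment. It is unknown for MLL-AF10, deposited as log2 values, and for MLL-AF9, deposited as FPKM, a level scaled to gene length and library size. The locus Jak1 had 196, 195 and 198 CPM (counts scaled to a common library size with TMM factors) in the floxed libraries and 166, 153 and 154 in the null libraries, a log2 fold change of −0.32. The groups did not overlap. RNA of undeleted exons would still be counted, and whether all cells of the null libraries had lost Jak1 was not tested. Kmt2a, the MLL locus, fell from 13.7 ± 0.256 to 5.61 ± 0.413 FPKM (mean ± SD, n = 3, as in all levels below) with DOX in MLL-AF9 and by 0.59 on the log2 scale in MLL-AF10, and Picalm, the CALM locus, fell by 0.78 with CALM-AF10 off. Myeloid progenitor markers were abundant in every table, apart from Kit in MLL-AF9, at 2.03 ± 0.429 FPKM in DMSO and 1.77 ± 0.660 in DOX. Cd3e, Cd3g, Pax5 and Ms4a1 were listed at 0, or at the lowest value of 0.01 FPKM, in all 24 libraries. Summed erythroid and B cell markers stayed below 3 CPM in the count tables. The exact marker sums that moved with a comparison are given beside it.

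Deletion of Jak1 was accompanied by lower RNA of nearly all of these genes. Of 36 members tested, 33 fell, 2 rose and 1 did not pass the test, where 28.3% of all 11607 genes tested fell and 27.4% rose (edgeR's quasi-likelihood test, adjusted p under 0.05). All 15 core enzymes tested and all 13 HIF targets fell. The median log2 fold change was −0.76 for the core enzymes and −1.02 for the HIF targets, against 0.0076 over all genes tested. A fall of at least 1 log2 unit was seen in 7 of the 15 core enzymes (46.7%) and 7 of the 13 HIF targets (53.8%), against 5.63% of all genes tested. In bulk RNA, fewer cells of a type and less RNA per cell cannot be told apart. Eno1 and Ldhb were too low to be tested.

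The core enzymes fell at every tested step of the chain. Together they made up 1.71% to 1.79% of the counts of the floxed libraries and 0.983% to 1.05% of those of the null libraries, without overlap. Levels in CPM are not divided by gene length, so they compare libraries, not genes.

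Hk2, the hexokinase isozyme commonly induced by growth signals, was at 282, 289 and 280 in the floxed libraries and 174, 180 and 178 in the null libraries. Its log2 fold change, given below with its SE after the ±, was −0.68 ± 0.033 (SE, adjusted p = 4.91e-17). Hk3, a hexokinase typical of myeloid cells, was at 1180, 1173 and 1129 against 953, 950 and 976, the smallest fall of a core enzyme (−0.27 ± 0.029, adjusted p = 2.57e-09). For both genes every null library lay below every floxed one, but Hk3 kept 82.7% of its floxed mean and Hk2 62.5%. The ratio of Hk3 to Hk2 counts within a library went from between 4.03 and 4.19 to between 5.28 and 5.49.

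Pfkl, the liver-type phosphofructokinase that commits sugar to glycolysis, was at 506, 501 and 492 against 186, 187 and 216 (−1.35 ± 0.040, adjusted p = 1.9e-22). Pfkp, the platelet-type isozyme, fell similarly (−1.11), whereas Pfkm, the muscle type, fell by 0.32 on the log2 scale. Aldoa, the main aldolase, was at 3041, 3002 and 2939 against 1269, 1291 and 1423 (−1.17 ± 0.034, adjusted p = 1.18e-22). All null values of these enzymes were below all floxed values. Aldoc, the brain-type aldolase, fell further than any other core enzyme, from 54.2, 61.7 and 54.1 to 8.48, 10.5 and 10.6 (−2.52 ± 0.081), and kept 17.4% of its floxed mean.

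In the second part of the chain, Pgk1, the phosphoglycerate kinase that makes ATP, was at 695, 723 and 649 in the floxed and 264, 277 and 292 in the null libraries (−1.31 ± 0.038, adjusted p = 8.31e-23). Ldha, the lactate dehydrogenase subunit that favours lactate production, was at 2183, 2187 and 1963 against 888, 907 and 1000 (−1.18 ± 0.039, adjusted p = 2.74e-21). Both groups were tight and apart, with the highest null library below the lowest floxed one. Tpi1, which interconverts the triose phosphates, fell by 1.39, Gapdh by 0.76 and the pyruvate kinase gene Pkm by 0.71 on the log2 scale. Pgam1, the phosphoglycerate mutase, fell by 0.46, Hk1 by 0.48 and the isomerase gene Gpi1 by 0.30.

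**Figure D1:**
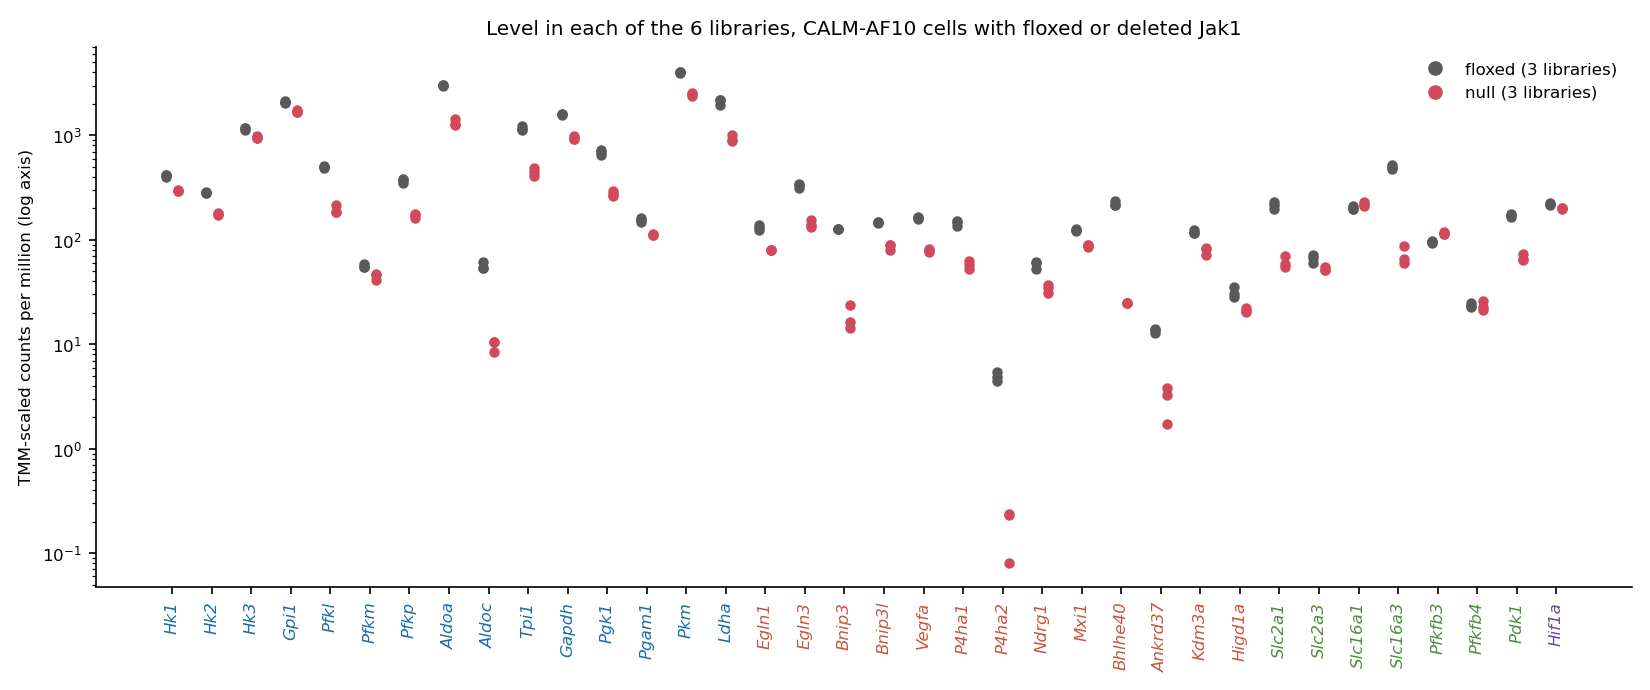
Level of each tested gene in the 6 libraries of the Jak1 experiment, as TMM-scaled CPM on a log axis; grey points are the 3 floxed and red points the 3 null libraries, and name colours mark core enzymes (blue), HIF targets (red), transporters and flux regulators (green) and Hif1a (purple). The red points lie below the grey ones for 33 genes, above them for Slc16a1 and Pfkfb3, and among them for Pfkfb4.

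Among the HIF targets, Bhlhe40, a basic helix-loop-helix repressor, had the smallest adjusted p. It was at 217, 237 and 217 in the floxed libraries and 24.8, 25.1 and 24.98 in the null libraries, 11.1% of the floxed mean (−3.17 ± 0.050, adjusted p = 2.19e-29). Bnip3, a mitochondrial receptor for mitophagy, was at 128, 126 and 126 against 14.4, 16.5 and 23.6 (−2.80 ± 0.080, adjusted p = 5.78e-23). Null library 3 was the highest of its group for Bnip3 and still lay far below every floxed library. Its relative Bnip3l, with a like role, fell by 0.77, and the ratio of Bnip3 to Bnip3l went from between 0.851 and 0.879 to between 0.180 and 0.266.

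Egln3, a prolyl hydroxylase that marks HIF for degradation and is itself induced by HIF, was at 333, 344 and 311 against 140, 134 and 155 (−1.21 ± 0.043, adjusted p = 1.4e-20). Vegfa, the blood vessel growth factor, was at 157, 166 and 161 against 79.9, 75.8 and 82.2 (−1.02 ± 0.042, adjusted p = 7.12e-19). Neither gene's groups overlapped. P4ha1, a subunit of collagen prolyl 4-hydroxylase, fell by 1.33 and the ankyrin repeat gene Ankrd37 by 2.19 on the log2 scale. P4ha2, the second such subunit, had raw counts of 63, 66 and 53 in the floxed libraries and of 1, 3 and 3 in the null libraries, a ratio of 0.0380 after correction for depth (95% counting interval 0.0151 to 0.0799).

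The other HIF targets fell less. Bnip3l, Ndrg1, a stress-responsive gene, and Egln1, the main oxygen sensor among the prolyl hydroxylases, fell by 0.77, 0.77 and 0.72 on the log2 scale. Kdm3a, a histone H3 lysine demethylase, fell by 0.59, the mitochondrial gene Higd1a by 0.56 and the Myc antagonist Mxi1 by 0.49. The range of the 13 targets, from −4.65 to −0.49, was thus wider than that of the 15 enzymes, from −2.52 to −0.27. Its lower end is P4ha2 alone, which was near the floor in the null libraries, and the next target is Bhlhe40 at −3.17.

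The transporters and flux regulators split. Slc16a3, the lactate exporter MCT4, was at 520, 498 and 472 in the floxed libraries and 60.6, 65.9 and 86.8 in the null libraries (−2.80 ± 0.064, adjusted p = 1.89e-25). Slc2a1, the glucose transporter GLUT1, was at 231, 218 and 196 against 54.5, 59 and 70.1 (−1.81 ± 0.061, adjusted p = 2.79e-21). Pdk1, the mitochondrial kinase that inhibits pyruvate dehydrogenase, was at 174, 177 and 164 against 63.7, 66.2 and 73.5 (−1.34 ± 0.047, adjusted p = 1.1e-20). For all 3 genes the null libraries lay far below the floxed ones, and null library 3 was the highest of its group.

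Slc16a1, the monocarboxylate transporter MCT1, went the other way, from 210, 197 and 198 to 211, 233 and 220 (0.14 ± 0.038, adjusted p = 0.00316). Pfkfb3, which makes the activator of phosphofructokinase, rose from 93.2, 95.4 and 98.2 to 120, 113 and 113 (0.27 ± 0.042, adjusted p = 2.68e-06). These rises were small, and the groups were apart for both genes, narrowly for Slc16a1. The ratio of Slc16a3 to Slc16a1 within a library, which cancels the library's scale, was 2.47, 2.53 and 2.38 in the floxed and 0.287, 0.283 and 0.394 in the null libraries. Slc2a3, the glucose transporter GLUT3, fell by 0.34, and Pfkfb4, a relative of Pfkfb3, did not pass the test (−0.032 ± 0.079, adjusted p = 0.757).

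Hif1a RNA differed little beside its targets. It was at 227, 215 and 218 in the floxed libraries and 203, 199 and 202 in the null libraries (−0.13 ± 0.034, adjusted p = 0.00193), lower in each null library and at 91.4% of the floxed mean. HIF protein is controlled mainly by its stability, which RNA-seq does not measure.

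**Figure D2:**
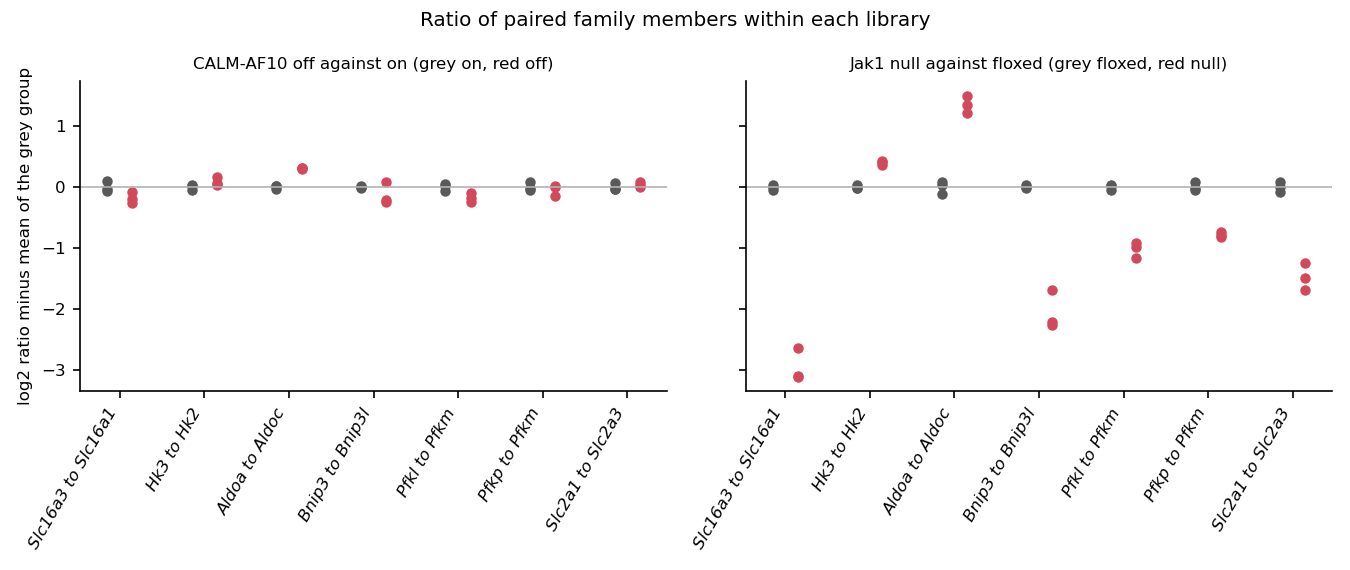
Log2 ratio of 2 related genes within each library, minus the mean of the grey group, for 7 pairs in the CALM-AF10 (grey on, red off) and Jak1 (grey floxed, red null) libraries; each point is 1 library. In the Jak1 experiment the ratio of Slc16a3 to Slc16a1 dropped from 2.38 or more to 0.394 or less, and the ratio of Bnip3 to Bnip3l from 0.851 or more to 0.266 or less.

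Genes of the same pathways outside the 38 give the setting. Their counts are to be read beside the 28.3% of all genes tested that fell and the 27.4% that rose. Of 38 further HIF-linked genes tested, 31 fell and 1 rose, with a median of −0.49. Fam162a, a HIF-induced mitochondrial gene, fell from 174 ± 5.26 to 51.3 ± 3.61 CPM and Ero1l, an oxidase of the endoplasmic reticulum, from 534 ± 1.29 to 281 ± 6.80, whereas the transferrin receptor gene Tfrc rose from 843 ± 24.4 to 964 ± 62.3. Of 21 other glycolysis genes tested, 7 fell and 5 rose, near the shares of all genes, with a median of 0.010. Slc2a6, a glucose transporter of myeloid cells, and Fbp1, the gluconeogenic bisphosphatase, fell by 0.56 and 1.40 (adjusted p = 1.94e-12 and 3.61e-12), and Pdha1, a subunit of pyruvate dehydrogenase, and Adpgk, an ADP-dependent glucokinase, rose by 0.19 and 0.21. Of 10 pentose phosphate genes, 5 rose and 2 fell. Pgls and Prps1 rose by 0.57 and 0.40, and the dehydrogenase genes Pgd and G6pdx fell by 0.34 and 0.21 on the log2 scale.

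Levels of cell markers moved as well. The summed myeloid progenitor markers were 4925 to 5170 CPM in the floxed and 6866 to 7121 in the null libraries. Of these 7 markers, 5 were higher and Spi1 lower, where 27.4% and 28.3% of all genes tested were so. Sums of the other lists were small, at 8.80 to 10.2 and 19.8 to 23.7 for stroma, where Pdgfrb alone rose, 5.76 to 6.86 and 3.33 to 4.01 for T cells, where Lck fell, and 2.73 to 3.30 and 0.734 to 1.34 for megakaryocytes, where Pf4 fell. The locus Picalm, which also gives the first part of CALM-AF10, was at 584 ± 7.92 in the floxed and 409 ± 11.1 in the null libraries. The part of these shifts in the result was not tested. All 35 calls among the members held under other scalings, with DESeq2 and without any single library.

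Promoters of 6 of these genes are printed. They are the lactate transporters that moved in opposite directions and the most reduced mitophagy receptor and aldolase. The others are the enzyme with the most element matches, Ldha, and 1 of the 2 with none, Tpi1. Each window spans 250 bases before to 50 after the start in RefSeq's annotation of GRCm38.p6, given 5′ to 3′ on the gene's strand, with capitals where ACGTG or GCGTG, the core letters bound by HIF, occur on either strand.
Slc16a3, chr11:120948817-120949116 on the plus strand: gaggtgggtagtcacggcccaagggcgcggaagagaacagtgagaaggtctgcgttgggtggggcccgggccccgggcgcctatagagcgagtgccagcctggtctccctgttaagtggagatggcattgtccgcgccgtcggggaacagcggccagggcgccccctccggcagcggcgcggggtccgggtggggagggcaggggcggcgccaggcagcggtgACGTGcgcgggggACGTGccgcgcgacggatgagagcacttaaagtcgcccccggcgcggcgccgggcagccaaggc
Slc16a1, chr3:104638414-104638713 on the plus strand: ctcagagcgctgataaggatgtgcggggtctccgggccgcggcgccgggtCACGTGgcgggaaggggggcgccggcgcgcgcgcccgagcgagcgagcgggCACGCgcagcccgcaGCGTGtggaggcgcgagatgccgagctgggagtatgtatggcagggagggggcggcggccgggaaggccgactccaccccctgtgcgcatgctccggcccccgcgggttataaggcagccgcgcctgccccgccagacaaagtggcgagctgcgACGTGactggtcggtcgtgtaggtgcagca
Bnip3, chr7:138909457-138909756 on the minus strand: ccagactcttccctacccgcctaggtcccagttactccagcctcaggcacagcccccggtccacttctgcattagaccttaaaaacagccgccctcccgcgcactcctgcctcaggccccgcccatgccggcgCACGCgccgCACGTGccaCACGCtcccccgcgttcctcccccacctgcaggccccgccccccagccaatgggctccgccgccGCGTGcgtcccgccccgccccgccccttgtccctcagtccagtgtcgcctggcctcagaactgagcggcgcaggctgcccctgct
Aldoc, chr11:78322823-78323122 on the plus strand: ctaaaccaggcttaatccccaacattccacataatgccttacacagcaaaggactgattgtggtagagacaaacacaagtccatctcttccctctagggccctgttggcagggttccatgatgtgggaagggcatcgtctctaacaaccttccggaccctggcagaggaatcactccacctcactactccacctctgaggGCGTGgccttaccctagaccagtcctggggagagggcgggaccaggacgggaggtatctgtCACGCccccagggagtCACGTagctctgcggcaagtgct
Ldha, chr7:46845554-46845853 on the plus strand: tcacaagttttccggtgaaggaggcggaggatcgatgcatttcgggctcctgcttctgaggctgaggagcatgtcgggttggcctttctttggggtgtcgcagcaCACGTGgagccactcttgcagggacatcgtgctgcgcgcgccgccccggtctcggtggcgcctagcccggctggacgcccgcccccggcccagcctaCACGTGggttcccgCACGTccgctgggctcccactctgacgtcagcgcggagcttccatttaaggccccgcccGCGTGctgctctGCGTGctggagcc
Tpi1, chr6:124814109-124814408 on the minus strand: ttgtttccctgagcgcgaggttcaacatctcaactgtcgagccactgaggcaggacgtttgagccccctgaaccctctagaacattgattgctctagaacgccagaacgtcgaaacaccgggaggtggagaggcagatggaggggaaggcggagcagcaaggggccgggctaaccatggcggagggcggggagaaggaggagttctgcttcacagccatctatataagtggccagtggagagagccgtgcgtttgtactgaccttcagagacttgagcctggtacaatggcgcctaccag
The windows hold 2 matches for Slc16a3, 5 for Slc16a1 and Bnip3, 3 for Aldoc, 7 for Ldha and none for Tpi1. A palindrome CACGTG counts as 2 matches, one per strand, and its letters are also those of the E-box bound by Myc and related factors; Ldha has 2 and Slc16a1 and Bnip3 1 each. Slc16a1, which rose, holds 5 matches by this count, and Slc16a3, which fell by 2.80 on the log2 scale, holds 2. Tpi1 fell by 1.39, and Gpi1, whose window is not printed and also holds none, by 0.30. Whether matches go with fold changes was not tested.

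Of the 38 genes, 34 had a window in the table used, and 32 of those (94.1%) held a match in at least 1 window. The share was 46.7% of 27025 genes with a window and 68.3% of the 8927 that were tested in the Jak1 comparison. Their median GC content was 63.9%, against 52.7% and 60.7%. By single window the share was 78.8% of 52 member windows and 43.8% of 32851 windows. A match of 5 letters is a description of the window and not a binding site.

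With CALM-AF10 off, the members that changed were all lower. Of 37 members tested, 8 fell and none rose by edgeR, where 3.11% of 12366 genes tested fell and 2.13% rose. At an unadjusted p under 0.05 the members numbered 18 lower and 3 higher, where 11.7% and 10.1% of all genes tested were so. DESeq2 called 13 of 38 lower and 0 higher, against 2.79% and 2.43% of its 16556 genes. The called members were 4 of 13 HIF targets, 3 of 7 transporters and flux regulators, and 1 of 16 core enzymes. The median log2 fold change was −0.25 for the HIF targets and −0.063 for the core enzymes, against −0.0029 over all genes tested. Only P4ha2 among the members fell by at least 1 log2 unit, as did 0.477% of all genes tested.

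P4ha2 was at 2.58, 1.55 and 2.18 CPM with the fusion on and 0.430, 0.555 and 0.908 with it off (−1.91 ± 0.29, adjusted p = 0.00745). Its raw counts were 71, 38 and 88 against 16, 17 and 11, a ratio of 0.255 (95% counting interval 0.180 to 0.355). Bnip3 was at 81.6, 70.4 and 75.4 against 58.05, 54.2 and 60.9 (−0.40 ± 0.065, adjusted p = 0.00985). Both genes were lower in every off library. Bhlhe40 was at 234, 231 and 238 against 205, 198 and 190 (−0.25 ± 0.044, adjusted p = 0.0141). Kdm3a was called with a log2 fold change of −0.26.

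Aldoc was the single core enzyme called, at 106, 99.95 and 101 with the fusion on and 84.8, 82.1 and 79.05 with it off (−0.32 ± 0.046, adjusted p = 0.00634). Ldha was at 1185, 1145 and 1181 against 1082, 1077 and 1119 (−0.099 ± 0.040, adjusted p = 0.19). Its off libraries were all below its on libraries, by a margin too small for a call. Hk2 was at 239, 231 and 233 against 238, 240 and 244 (0.038, adjusted p = 0.614) and its groups overlapped. Hk3 was at 607, 618 and 632 against 644, 664 and 722 (0.13, adjusted p = 0.183). Hk3 was higher in each off library, yet not called. The core enzymes made up 0.960% to 0.988% of the counts with the fusion on and 0.927% to 0.944% with it off.

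Pdk1 was at 222, 204 and 206 with the fusion on and 186, 175 and 180 with it off (−0.23 ± 0.049, adjusted p = 0.0309). Slc16a3 was at 138, 123 and 127 against 115, 105 and 106 (−0.25 ± 0.057, adjusted p = 0.0381). Slc2a1 was at 129, 120 and 123 against 112, 107 and 107 (−0.19 ± 0.046, adjusted p = 0.0461). All 3 were lower in each off library, at 84.0% to 87.6% of the on mean. Vegfa was at 144, 151 and 144 against 150, 171 and 176 (0.18, adjusted p = 0.13), and Hif1a at 291, 294 and 292 against 297, 323 and 283 (0.044, adjusted p = 0.666). For these 2 genes the groups overlapped.

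Of 37 further HIF-linked genes tested, 3 fell and none rose by edgeR, with 15 lower and 1 higher at an unadjusted p under 0.05 and 4 lower and 0 higher by DESeq2. Of all genes tested, edgeR called 3.11% lower and 2.13% higher. Plod2, a collagen lysyl hydroxylase, fell from 17.1 ± 2.32 to 7.28 ± 0.680 CPM and Ak4, a mitochondrial adenylate kinase, from 86.2 ± 1.98 to 71.3 ± 0.619 (adjusted p = 0.000921 and 0.00768). None of 22 other glycolysis genes was called by edgeR, with 3 higher and 4 lower at an unadjusted p under 0.05 and 1 in each direction by DESeq2. Among 10 pentose phosphate genes the transaldolase gene Taldo1 rose from 339 ± 6.90 to 402 ± 29.2 (adjusted p = 0.0353, edgeR). At an unadjusted p under 0.05, 4 of these 10 were higher and 0 lower, where 10.1% and 11.7% of all genes tested were so. DESeq2 called 3 of the 10 higher and 0 lower, against 2.43% and 2.79% of its genes. The summed myeloid progenitor markers were 8151 to 8669 with the fusion on and 10199 to 10639 in the off libraries, with 5 of 7 called higher, and the megakaryocyte markers 327.9 to 341.9 and 277.2 to 295.1, with Itga2b lower; their part in the result was not tested. Slc2a1 and Pdk1 lost their calls without any one of 5 of the 6 libraries, Slc16a3, Bhlhe40 and Kdm3a without any one of 4, and Bnip3 without on library 3 (adjusted p = 0.0541). The count of members called lower fell from 8 to 3 without on library 1, on library 2 or off library 2 and to 2 without on library 3. The authors' deposited table lists 359 genes as lower with CALM-AF10 off, and Aldoc, Egln3, Bnip3 and P4ha2 are the members among them.

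**Figure D3:**
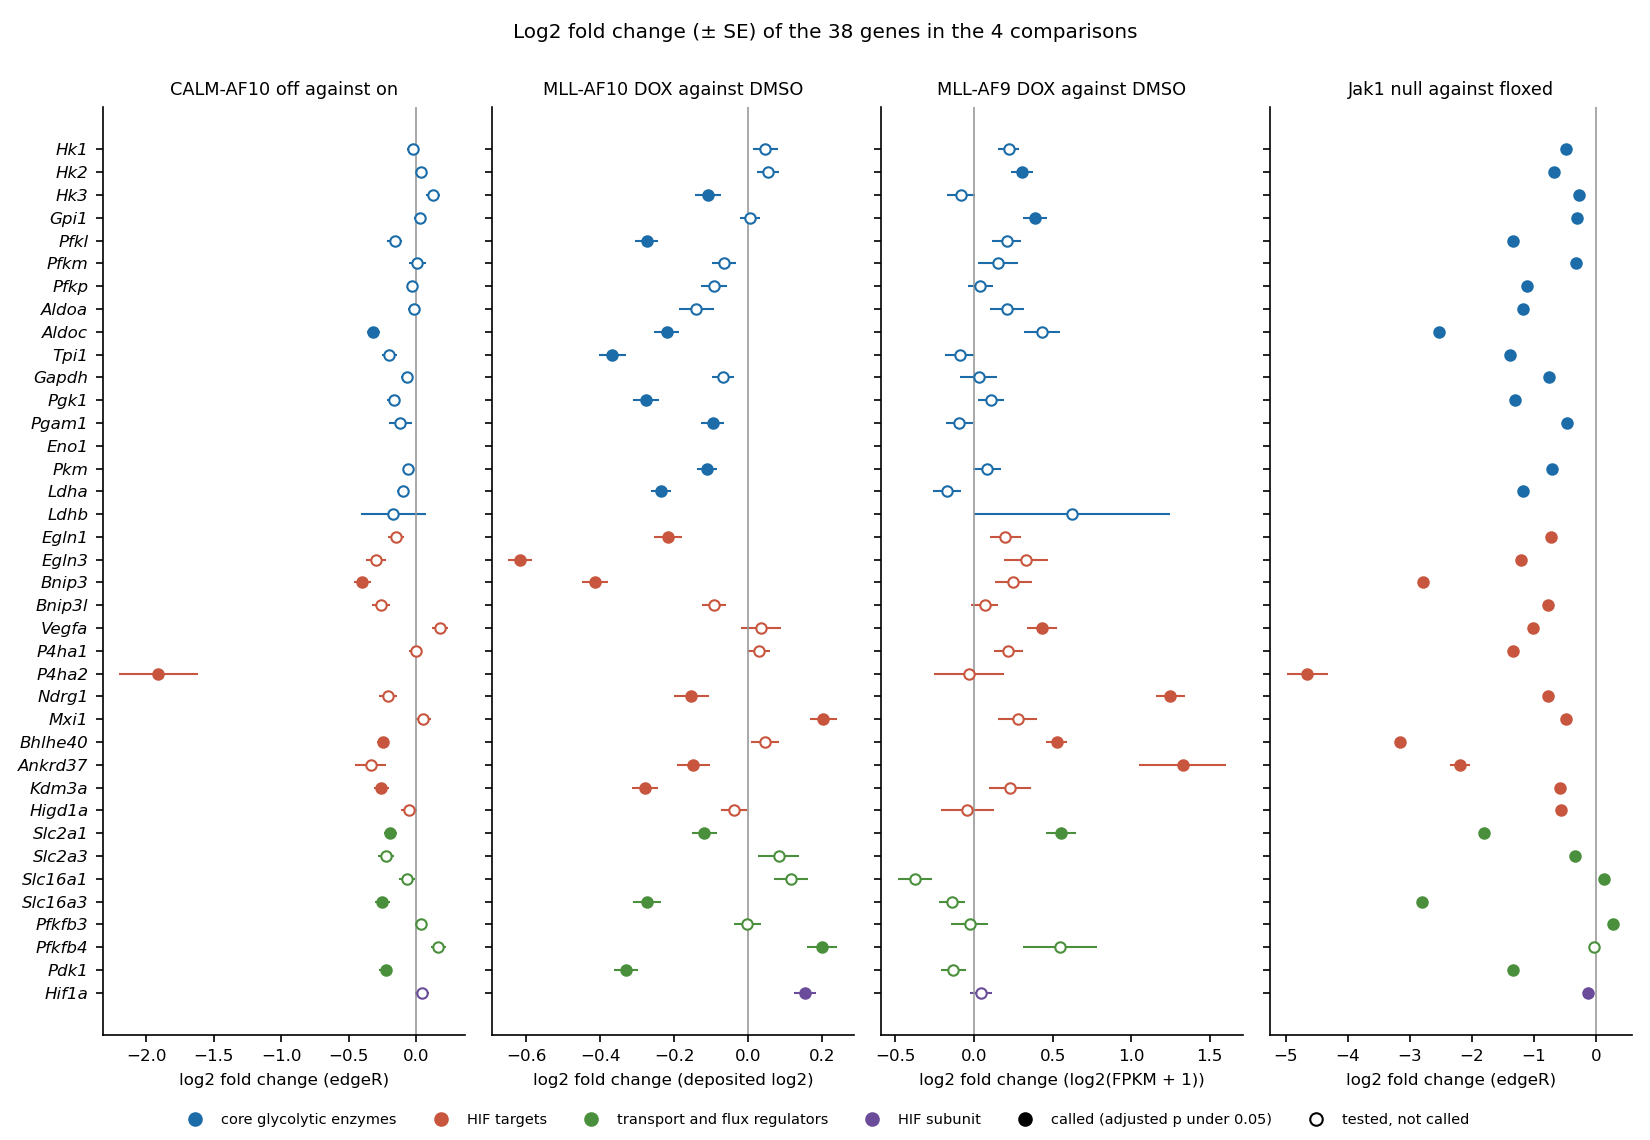
Log2 fold change of each of the 38 genes in the 4 comparisons with its SE as a horizontal bar, filled where called at an adjusted p under 0.05 and open where not, each panel on its own scale and genes without a point not tested. In the Jak1 panel 33 of 36 points are filled and left of 0, in the CALM-AF10 panel 8 of 37, in the MLL-AF10 panel 17 of 35, and in the MLL-AF9 panel none of 36, where 7 are filled to the right.

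In MLL-AF10 cells treated with DOX, 17 of 35 members tested were lower and 3 higher, where 9.17% of 10553 genes tested were lower and 10.6% higher (limma). Those lower were 8 of 15 core enzymes, 6 of 12 HIF targets and 3 of 7 transporters and flux regulators. The median log2 difference was −0.11 for core enzymes and −0.12 for HIF targets, against 0.00059 over all genes tested. The values are differences of the deposited log2 values, whose transformation the sources used here do not state, so their size cannot be set beside that of the other tables. No member moved by 1 log2 unit, and of all genes tested 3 fell and 2 rose by that much.

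Egln3 had the largest difference, with log2 values of 9.73, 9.68 and 9.70 in DMSO and 9.11, 9.08 and 9.08 in DOX (−0.62 ± 0.032, adjusted p = 1.12e-08). Bnip3 was at 8.997, 9.12 and 9.05 against 8.63, 8.63 and 8.66 (−0.41 ± 0.036, adjusted p = 1.82e-06). Kdm3a was at 9.09, 9.16 and 9.16 against 8.90, 8.84 and 8.83 (−0.28 ± 0.035, adjusted p = 5.2e-05). In all 3 genes the DOX libraries lay below the DMSO libraries. Egln1, Ndrg1 and Ankrd37 fell by 0.22, 0.15 and 0.15, Ankrd37 with overlapping groups, and Mxi1 rose by 0.20. Vegfa was at 9.09, 9.28 and 9.33 against 9.19, 9.27 and 9.34 (0.034, adjusted p = 0.711), with overlapping groups.

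Tpi1 led the core enzymes, at 11.84, 11.87 and 11.82 in DMSO and 11.39, 11.55 and 11.50 in DOX (−0.37 ± 0.037, adjusted p = 9.11e-06). Ldha was at 12.63, 12.66 and 12.63 against 12.40, 12.39 and 12.42 (−0.24 ± 0.027, adjusted p = 2.26e-05). Pfkl was at 10.45, 10.52 and 10.52 against 10.20, 10.25 and 10.22 (−0.27 ± 0.032, adjusted p = 3.22e-05). The DOX libraries were lower throughout for these enzymes. Pgk1, Aldoc, Pkm and Pgam1 fell by 0.28, 0.22, 0.11 and 0.096.

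Of the hexokinases, Hk3 was at 11.36, 11.34 and 11.38 in DMSO and 11.33, 11.21 and 11.22 in DOX and was called lower (−0.11 ± 0.035, adjusted p = 0.039). Hk2 was at 9.80, 9.80 and 9.79 against 9.86, 9.83 and 9.86, higher in each DOX library but not called (0.054, adjusted p = 0.224). Hk1 was not called either (0.046).

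Pdk1 was at 10.14, 10.19 and 10.18 in DMSO and 9.82, 9.89 and 9.80 in DOX (−0.33 ± 0.033, adjusted p = 8.3e-06). Slc16a3 was at 9.95, 10.12 and 10.05 against 9.77, 9.77 and 9.77 (−0.27 ± 0.039, adjusted p = 0.000168). Slc2a1 was at 9.47, 9.55 and 9.50 against 9.40, 9.42 and 9.35 (−0.12 ± 0.034, adjusted p = 0.0222). These 3 genes were lower in every DOX library. Hif1a went the other way, at 10.57, 10.55 and 10.53 against 10.71, 10.70 and 10.70 (0.15 ± 0.029, adjusted p = 0.00166), and Pfkfb4 rose by 0.20.

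The libraries numbered 1 deviated together in this table, while numbers 2 and 3 could not be told apart. A fit with the number as a block was also made. It called 21 members lower and 4 higher, where 13.8% of all genes tested were lower and 15.6% higher in that fit. It added Pfkp, Aldoa, Gapdh and Bnip3l to those lower (adjusted p = 0.00783, 1.48e-09, 0.0174 and 0.0209, limma) and Slc16a1 to those higher (0.00405). Without the block the adjusted p of Aldoa was 0.0516 (limma), and its groups overlapped. Because limma pools variance over genes of like level, the blocked p-value of Aldoa does not measure its own spread alone. Ndrg1 and Pgam1 lost their calls without any one of 5 of the 6 libraries, Hk3 and Ankrd37 without any one of 4, Slc2a1 without any one of 3 and Pkm without DMSO library 2 (adjusted p = 0.0551, limma). Hk3 and Pgam1 also lost theirs with no filter on low values (0.0505 and 0.0591). Without DMSO library 2 the members called lower were 11. The authors' deposited table lists 966 genes as lower with MLL-AF10 off, 14 of them members, among these P4ha2, which was too low to be tested here.

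Of 34 further HIF-linked genes tested, 12 fell and 3 rose, where 9.17% of all genes tested fell and 10.6% rose. Ak4 and Fam162a fell by 0.42 and 0.27, and the HIF antagonist Cited2 and the HIF partner Arnt rose by 0.11 each (adjusted p = 0.0184 and 0.0259). Of 18 other glycolysis genes 5 rose and none fell by limma (7 and 1 at an unadjusted p under 0.05, where 17.2% and 15.2% of all genes tested were so). The smallest adjusted p were those of Dlat, a part of the pyruvate dehydrogenase complex, and the mutarotase gene Galm, higher by 0.21 and 0.14. Of 10 pentose phosphate genes 5 rose and 1 fell, with Pgd and G6pdx higher by 0.24 and 0.22 and Pgls lower by 0.13. Of the 7 myeloid progenitor markers 4 were higher, and the stromal list had Pdgfrb lower, at no more than 6.12 on the log2 scale; their part in the result was not tested.

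In MLL-AF9 cells treated with DOX, 7 of 36 members tested were higher and none lower, where 7.23% of 10881 genes tested were higher and 4.54% lower (limma on log2(FPKM + 1), a scale that understates the change of low genes). At an unadjusted p under 0.05 there were 11 higher and 1 lower, where 14.5% and 13.4% of all genes tested were so. The calls were 4 of 13 HIF targets, 2 of 16 core enzymes and 1 of 6 transporters and flux regulators. Medians were 0.25 for the HIF targets and 0.13 for the core enzymes, against −0.016 over all genes tested. Of the HIF targets, 2 rose by at least 1 log2 unit (15.4%), against 1.96% of all genes tested. These libraries were made from total RNA per the labels, unlike the polyA RNA of the other models, and a single small RNA entry held 74.0% to 92.4% of the summed FPKM.

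Ndrg1 was at 24.5, 27.03 and 26.97 FPKM in DMSO and 63.8, 58.4 and 68.6 in DOX (1.25 ± 0.090, adjusted p = 0.000373). Bhlhe40 was at 45.1, 46.4 and 44.3 against 64.95, 65.9 and 65.9 (0.53 ± 0.067, adjusted p = 0.00364). Ankrd37 was at 10.4, 11.4 and 5.93 against 30.8, 26.2 and 16.9 (1.33 ± 0.28, adjusted p = 0.0234). Each DOX library lay above each DMSO library, with a wide spread for Ankrd37. Vegfa was at 96.3, 86.4 and 87.8 against 133, 124 and 109 (0.43 ± 0.094, adjusted p = 0.0274), also without overlap. Bnip3 was at 41.9, 32.8 and 32.5 against 46.1, 41.9 and 39.4 (0.25, adjusted p = 0.224), with overlapping groups.

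Of the enzymes, Gpi1 was at 378, 347 and 365 FPKM in DMSO and 458, 470 and 497 in DOX (0.39 ± 0.077, adjusted p = 0.0198). Hk2 was at 40.7, 39.5 and 39.96 against 50.9, 50.9 and 47.5 (0.31 ± 0.072, adjusted p = 0.0359). Both were higher in each DOX library. Hk3 was at 362, 358 and 371 against 319, 380 and 334 (−0.084, adjusted p = 0.582) and overlapped. Ldha was at 874, 800 and 900 against 793, 753 and 736 (−0.17, adjusted p = 0.262), lower in each DOX library without passing the test.

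Slc2a1 was at 68.6, 57.2 and 63.7 FPKM in DMSO and 100, 85.99 and 92.99 in DOX (0.55 ± 0.096, adjusted p = 0.0113). Pdk1 was at 33.2, 31.6 and 31.4 against 28.5, 28.3 and 30.8 (−0.13, adjusted p = 0.333). Slc2a1 was thus higher and Pdk1 lower in each DOX library, but only the first difference was called. Slc16a1 had a log2 fold change of −0.38 (adjusted p = 0.0695), and the authors' deposited table holds it, alone of the members, among 887 genes lower with MLL-AF9 off. Hif1a was at 62.9, 63.7 and 65.8 against 65.5, 63.6 and 69.7 (0.045, adjusted p = 0.722), with overlapping groups. Hk2 lost its call whichever library was left out (adjusted p = 0.0562 to 0.112, limma), Vegfa and Ankrd37 without any one of 4 libraries and Gpi1 without any one of 3. The 7 calls became 4 without DMSO library 2 or DOX library 1 and 3 without DMSO library 3 or DOX library 2.

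Of 35 further HIF-linked genes tested, 6 rose and 3 fell, where 7.23% of all genes tested rose and 4.54% fell. Ddit4, an inhibitor of mTOR signalling, rose from 71.1 ± 8.80 to 137 ± 9.58 FPKM and Rbpj, the Notch effector, from 16.9 ± 0.851 to 31.5 ± 3.43, whereas Angptl4, a lipase inhibitor, fell from 13.96 ± 1.03 to 7.30 ± 1.25 and Tfrc from 91.7 ± 7.22 to 64.8 ± 2.70. None of 21 other glycolysis genes and 10 pentose phosphate genes was called by limma, with 2 higher and 1 lower of the first and 1 higher and 2 lower of the second at an unadjusted p under 0.05. The summed myeloid progenitor markers were 8625 to 9629 FPKM in DMSO and 7113 to 7924 in DOX, with Mpo and Ctsg lower, and no marker of the other lists was called; their part in the result was not tested.

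**Figure D4:**
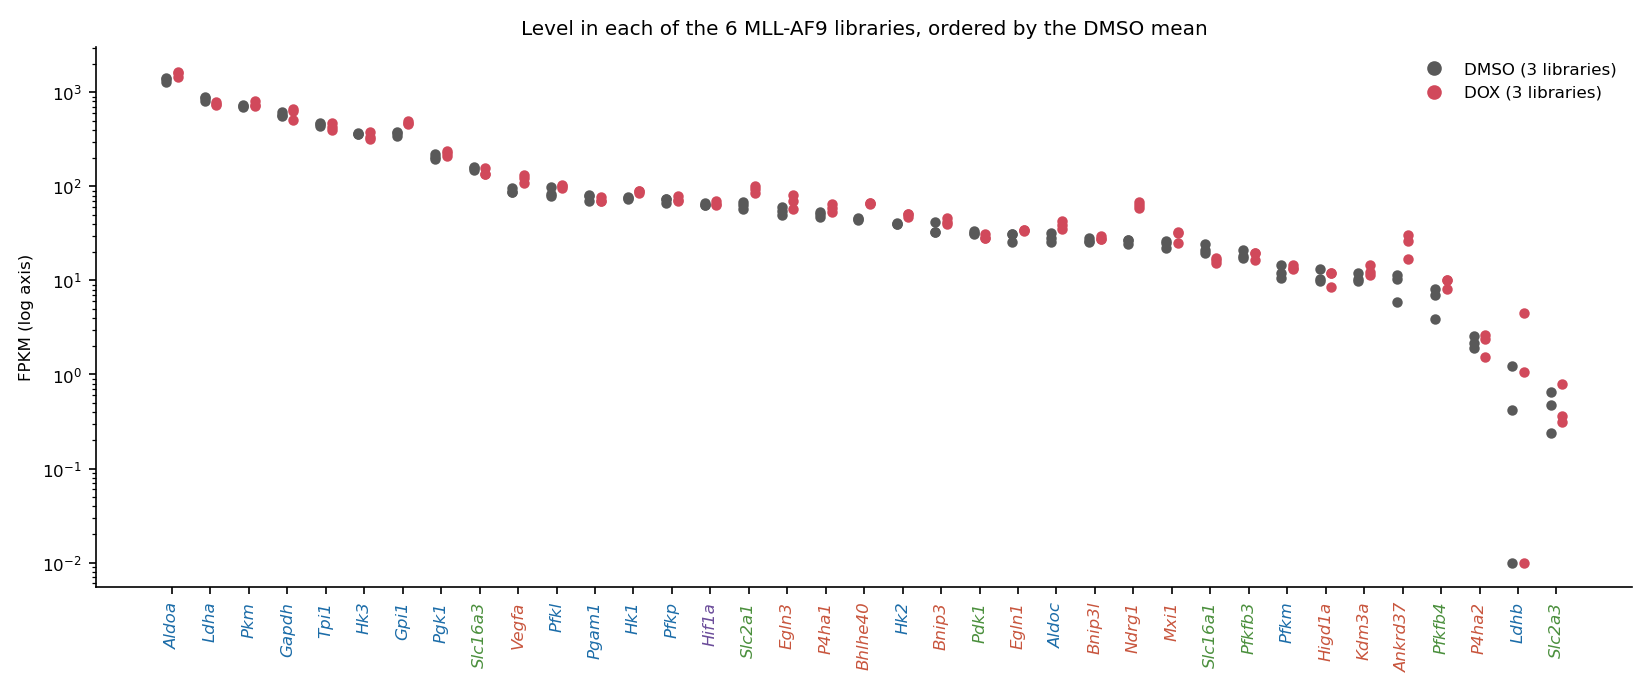
FPKM of each listed gene except Eno1 in the 6 MLL-AF9 libraries on a log axis, ordered by the DMSO mean; grey points are the 3 DMSO and red points the 3 DOX libraries, and name colours mark core enzymes (blue), HIF targets (red), transporters and flux regulators (green) and Hif1a (purple). Aldoa is highest at 1363 in DMSO and Slc2a3 lowest at 0.453, and Ndrg1 and Ankrd37 have the widest gap between the groups.

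FPKM is per length, so this table also ranks the genes. In DMSO the first 8 places went to core enzymes, from Aldoa at 1363 ± 77.6 FPKM and Ldha at 858 ± 51.9, through Pkm at 712 ± 17.8, Gapdh at 588 ± 31.0 and Tpi1 at 457 ± 20.9, to Pgk1 at 207 ± 13.6. Hk3, at 364 ± 6.52, and Gpi1, at 363 ± 15.7, did not differ beyond their spread. Slc16a3 followed at 156 ± 6.40, ahead of Vegfa, the highest HIF target, at 90.2 ± 5.34. Pgam1 (77.0 ± 5.42) overlapped both Pfkl (86.8 ± 9.51) above it and Hk1 (75.3 ± 2.27) below it. Hif1a at 64.1 ± 1.54 and Slc2a1 at 63.2 ± 5.71 likewise overlapped. At the low end stood P4ha2 at 2.22 ± 0.332, Ldhb at 0.547 ± 0.614 and Slc2a3 at 0.453 ± 0.207.

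The isozymes of a step contributed unevenly. Hk3 made up 75.9% ± 0.129 of the summed FPKM of the 3 hexokinases in DMSO and 71.4% ± 1.93 in DOX, Hk1 15.7% ± 0.286 and 18.3% ± 1.29, and Hk2 8.36% ± 0.189 and 10.3% ± 0.646. The Hk3 share was lower in each DOX library. Aldoa held 97.9% ± 0.153 of the aldolase signal and 97.6% ± 0.0851 with DOX. Pfkl and Pfkp held 50.8% ± 4.20 and 42.0% ± 3.10 of the phosphofructokinase FPKM in DMSO, and Pfkm 7.28% ± 1.33.

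Eno1, the main enolase of blood cells, was hardly detected in any table, with at most 3 raw counts per library in the count tables, about −1.47 on the log2 scale in MLL-AF10 and 0.01 FPKM in all MLL-AF9 libraries. Its near-identical copy Eno1b held 464.7 to 593.1 FPKM there, but was below 0.17 CPM in the count tables and listed at 0 in the MLL-AF10 table. How reads were shared between these copies was not tested, so enolase is left uncertain in all 4 comparisons. Ldhb, the heart-type lactate dehydrogenase subunit, was low as well, at 1.71 to 2.44 CPM with CALM-AF10 on and at 0 in 5 of the 6 Jak1 libraries, with 1 raw count in null library 3.

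Setting the comparisons side by side, Aldoc, Bnip3, Kdm3a, Pdk1, Slc16a3 and Slc2a1 were the 6 members called lower with Jak1 null, with CALM-AF10 off and with DOX in MLL-AF10. The share of all genes called lower in the same comparisons is not given here. All of the 6 but Aldoc lost their CALM-AF10 call when some single library was left out, and Slc2a1 also did so in MLL-AF10. All 8 members lower with CALM-AF10 off and all 17 lower with MLL-AF10 DOX were among the 33 lower with Jak1 null, a list that holds nearly every member tested there. These comparisons share no library. Of the 6, Slc2a1 was called higher with DOX in MLL-AF9, and the other 5 were not called there. Ankrd37, Bhlhe40, Gpi1, Hk2, Ndrg1, Slc2a1 and Vegfa, the 7 genes higher in MLL-AF9, were each lower with Jak1 null. Of these 7, Ankrd37, Gpi1, Hk2 and Vegfa lost their MLL-AF9 call when some single library was left out.

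Hif1a itself was lower with Jak1 null, higher with MLL-AF10 DOX and not called in the other comparisons, at log2 fold changes of −0.13, 0.15, 0.044 for CALM-AF10 and 0.045 for MLL-AF9. Vegfa was lower with Jak1 null, higher with MLL-AF9 DOX and not called in CALM-AF10 or MLL-AF10. Hk2 was lower with Jak1 null and higher with MLL-AF9 DOX, whereas Hk3 was lower with Jak1 null and with MLL-AF10 DOX. The MLL-AF9 call of Hk2 was lost whichever library was left out. Those of Vegfa in MLL-AF9 and of Hk3 in MLL-AF10 were lost without some single libraries.

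**Figure D5:**
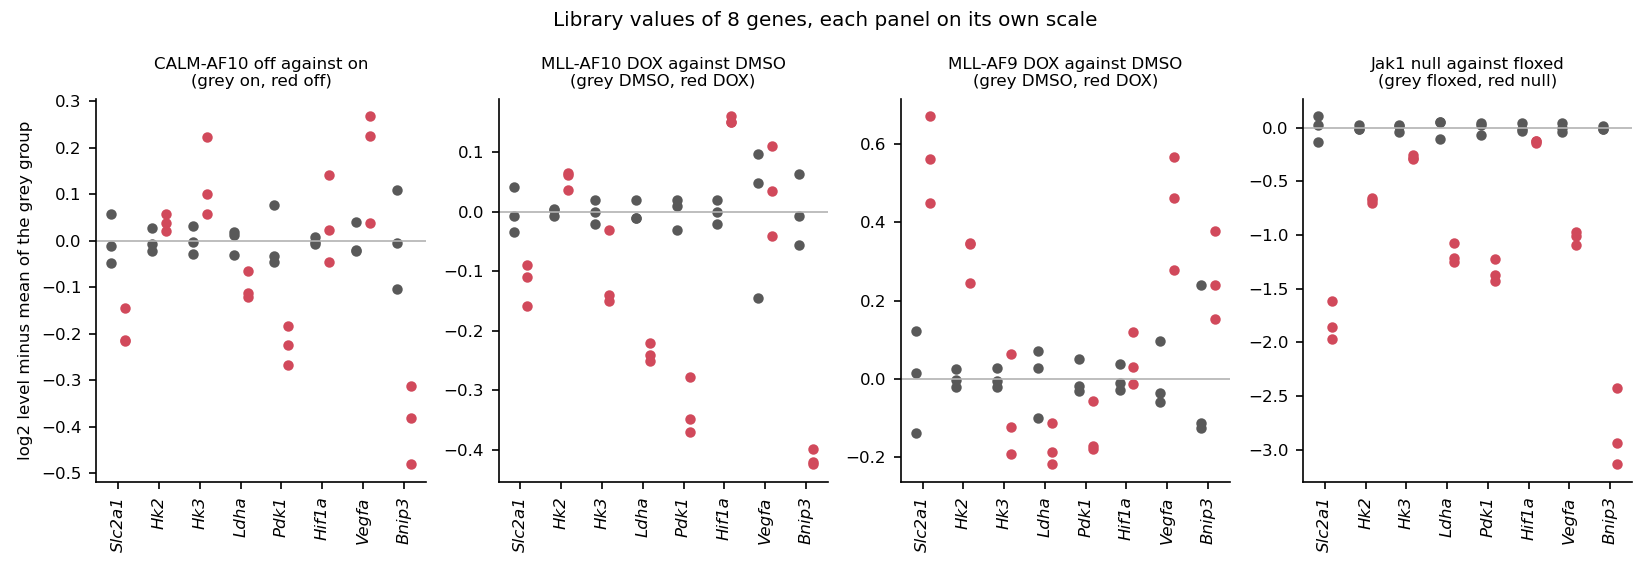
Library values of 8 genes on the log2 scale minus the mean of the grey group in each comparison (grey on, DMSO, DMSO and floxed, red off, DOX, DOX and null), each point 1 library and each panel on its own scale. Slc2a1, Pdk1 and Bnip3 are lower in every red library of the CALM-AF10, MLL-AF10 and Jak1 panels, while Slc2a1, Hk2 and Vegfa are higher in every red library of the MLL-AF9 panel.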

How the data were processed

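RNA-seq gene tables of 24 libraries in 8 groups of 3 were used. The authors deposited whole-number counts per gene for the CALM-AF10 and Jak1 experiments, log2 values for MLL-AF10 and FPKM for MLL-AF9. The Jak1 table is titled as FPKM but its values are whole numbers, and they were tested as counts. Its columns DMSO and Jak1_Del were read as floxed and null. Bowtie 0.12.2 and the mouse build mm9 are named in the submitters' processing notes, while counting and normalization tools are not stated there. No column of per-sample values was left unused.

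Counts were tested with edgeR 4.0.16 (quasi-likelihood, TMM, filterByExpr) in R 4.3.3, where levels are TMM-scaled CPM. The log2 values were tested with limma 3.58.1 where the mean was at least 3.32 (log2 of 10), and FPKM with limma on log2(FPKM + 1) where the mean was at least 1. P-values were adjusted over all genes tested (Benjamini-Hochberg), and a gene was called at an adjusted p under 0.05. Each table was fitted on its own 6 libraries. The scripts were tested on simulated data. In MLL-AF10 the deviations of same-numbered libraries correlated at 0.397, 0.199 and 0.194. Numbers 2 and 3 correlated nearly as well across (0.175 and 0.170), so only number 1 stands apart. In CALM-AF10 the same-numbered correlations were 0.315, 0.163 and 0.018, also highest for number 1. A blocked fit was run in each comparison. Alternatives were other scalings, filters and pseudocounts, DESeq2 1.42.0, the replicate block and leaving out each library. Python tools were pandas 2.3.3 and matplotlib 3.10.9.

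Members and lists were chosen with earlier results of these data known. Named in every comparison were Slc2a1, Hk2, Hk3, Ldha, Pdk1, Hif1a, Vegfa and Bnip3, plus the called members with the smallest adjusted p, up to 3 core enzymes, 3 HIF targets and 2 transporters or flux regulators. From each other list up to 2 called genes per direction were named. Aldoc, Slc16a1, Pfkfb3 and other members given by fold change alone were added after their values were seen. Promoter windows come from RefSeq (GRCm38.p6), the files from mm9, and no coordinate was converted. Counting intervals of a ratio are exact (Clopper-Pearson) at 95% and cover counting error only.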

Additional observations from a re-analysis of the deposited data

Results flagged for a closer look

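In 4 genes every DOX library lay below every DMSO library in MLL-AF10 and above every DMSO library in MLL-AF9. The share of all genes with this pattern is not given here, so the count has no baseline. Aldoc, an aldolase, had log2 fold changes of −0.22 in MLL-AF10 and 0.43 in MLL-AF9. Egln1, the oxygen-sensing prolyl hydroxylase, had −0.22 and 0.20. Ndrg1, a stress-responsive gene, had −0.15 and 1.25. Slc2a1, the glucose transporter GLUT1, had −0.12 and 0.55. The difference between the models was not tested, because the tables are on different scales, and model, RNA selection and table cannot be told apart. In MLL-AF9, Aldoc and Egln1 did not pass the test in the fit reported, so only their values are given. Aldoc passed there with a stricter filter on low values (adjusted p = 0.043, limma) and with median-ratio scaling (0.0493).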

How the results depend on the processing

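The Jak1 counts of 15 core enzymes and 13 HIF targets lower were the same under every alternative run. With CALM-AF10 off, core enzymes called lower numbered 1 as reported, 3 with DESeq2, 2 without a filter on low counts, 3 with the replicate block and 1 to 3 without one library. HIF targets called lower numbered 4 as reported, 7 with the block and 1 to 6 without one library, and those called higher 0 to 1 without one library. In MLL-AF10, core enzymes lower numbered 8 as reported and 5 to 10 without one library. All members called lower there, HIF targets included, numbered 17 as reported and 11 to 19 without one library. They numbered 20 with libraries centred on their median, 15 with no filter on low values, 18 with a stricter filter and 21 with the block. In MLL-AF9, core enzymes higher numbered 2 as reported, 0 with the replicate block and 0 to 1 without one library, and HIF targets higher 4 as reported and 2 to 4 without one library. Aldoc was also called higher in MLL-AF9 with a stricter filter on low values (adjusted p = 0.043, limma) and with median-ratio scaling (0.0493). No value changed sign among called results. Over all genes, calls in CALM-AF10 numbered 648, 1048 with the block and 146 to 944 without one library, and in MLL-AF9 1281, 781 with the block and 648 to 1036 without one library. In MLL-AF10 they numbered 2089, 3102 with the block and 1307 to 2396 without one library. Leaving out a library leaves fewer samples; the cause of the other shifts was not tested. Same-numbered libraries of CALM-AF10 correlated at 0.315, 0.163 and 0.018, highest for number 1 as in MLL-AF10. Unlike-numbered pairs there lay between −0.273 and 0.176. With the block, edgeR called 14 members lower and 0 higher in CALM-AF10, where 5.18% of all genes tested were lower and 3.3% higher. Same-numbered correlations were −0.0071 to 0.020 in MLL-AF9 and −0.016 to −0.0017 in Jak1. Off library 3, the shallowest of CALM-AF10 at 12130633 counts, differed most from its group. Depth is unknown for MLL-AF10 and MLL-AF9, so no counting limit can be given there.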
